A study of Mus musculus with 3 samples.

Results

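The 10 genes described here encode the enzymes of fatty acid synthesis and their main transcriptional activator: Acly, Acaca, Fasn, Me1, Elovl1, Elovl3, Elovl6, Scd1, Scd2 and Srebf1. They were found by symbol among the 32285 genes counted in single cells of mouse back skin, and each symbol matched 1 gene. Their unique molecular identifiers (UMIs, 1 per captured RNA molecule) were summed over the cells of each skin cell class in each library, and a level is given as CPM, the UMIs of the gene per 1000000 UMIs of that class. Scd1 was highest in sebaceous gland-like cells, Scd2 in Schwann-like cells and Elovl1 in suprabasal-like cells, so that each of these enzymes had its own peak class. Between the knockout and control libraries, Scd2 was the member that stood apart most often. Its level in suprabasal-like cells was 27.0 CPM in the 2-week knockout and 42.9 CPM in the 3-week knockout, against 15.3 CPM in control.

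Fatty acid synthesis starts from citrate, which ATP citrate lyase (Acly) cleaves to acetyl-CoA. Acetyl-CoA carboxylase (Acaca) makes malonyl-CoA, fatty acid synthase (Fasn) builds palmitate from it with NADPH that malic enzyme (Me1) helps to supply, elongases (Elovl) lengthen the chain and stearoyl-CoA desaturases (Scd) place a double bond in it. In skin the pathway is known for sebum, which sebaceous glands secrete, and for the very long chains in the ceramides of the epidermal barrier.

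The study compared an inducible loss of Piezo1, a mechanically gated cation channel, with a control, using 1 library per group. The 2-week knockout came from K5-Cre-er/Piezo1fl/fl/Tdfl/+ mice sampled at postnatal day 62, 2 weeks after induction. The 3-week knockout came from K5-Cre-er/Piezo1fl/fl/Tdfl/fl mice at postnatal day 71, 3 weeks after induction. The control came from K5-Cre-er/Piezo1fl/+/Tdfl/+ mice at postnatal day 62, 2 weeks after induction. All were C57BL/6 mice given tamoxifen from postnatal day 48 to 52, and the control carried the Cre driver and 1 floxed Piezo1 allele too. The keratin 5 promoter drives the Cre in stratified epithelium, so dermal, immune and nerve cells are not its targets. The 3-week knockout had no control of its own age, and it differed from the others in its Td alleles. Age, time, Td genotype and library cannot be told apart for it. Whether cells of several mice were pooled is not given in the sources used here. With 1 library per group no test was possible: the 95% intervals below cover counting error only, and a difference of at least 1.5-fold is called higher or lower by its size alone. Both knockout libraries are set against the same control library.

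The libraries held 97960352 UMIs in 11144 barcodes for the 2-week knockout, 118610125 UMIs in 11186 barcodes for the 3-week knockout and 62967542 UMIs in 5621 barcodes for control. Of these, 9568 cells were kept in the 2-week knockout and 9637 in the 3-week knockout, against 4899 in control. Median depth ran from 7502 to 9985 UMIs per cell, and 12 to 20 barcodes were shared between any pair of libraries. Classes are named by likeness to marker genes that include none of the 10 members, and the members were left out of the genes used for clustering. Piezo1 itself was at 27.5 CPM in the 2-week knockout and 15.1 CPM in the 3-week knockout, against 34.5 CPM in control, over the keratinocyte classes. Counts come from the 3′ end of transcripts, and the position of the floxed exons is not given in the sources used here, so this level does not check the deletion.

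The desaturases divided the skin between them. Scd1 (chromosome 19, 44394455 to 44407879, minus strand, mm10) makes oleate and palmitoleate and is needed in mice for functional sebaceous glands. In sebaceous gland-like cells it reached 8793 CPM in the 3-week knockout (23986 UMIs, 116 cells) and 6170.4 CPM in control (12032 UMIs, 99 cells). The 2-week knockout had 18 such cells with 1356 UMIs, of which 77.0% came from 1 cell, and it is not compared. The next class was Schwann-like, at 253 CPM in the 2-week knockout and 209.8 CPM in the 3-week knockout, against 187 CPM in control. Suprabasal-like cells followed at 112 CPM in the 2-week knockout and 122 CPM in the 3-week knockout, against 113 CPM in control, and interfollicular basal-like cells stood at 45.2 CPM in the 2-week knockout and 52.2 CPM in the 3-week knockout, against 43.0 CPM in control. Bulge-like cells were near the low end at 14.2 CPM in the 2-week knockout and 27.5 CPM in the 3-week knockout, against 19.2 CPM in control. Sebaceous gland-like cells held 24.4% of all its UMIs in the 2-week knockout and 75.8% in the 3-week knockout, against 80.5% in control, and these cells were fewest in the 2-week knockout.

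Scd2 (chromosome 19, 44293674 to 44306864, plus strand), the neighbouring paralog known in mice for its role in brain and in newborn skin, had a different distribution. Schwann-like cells had 1118 CPM in the 2-week knockout (424 UMIs) and 908 CPM in the 3-week knockout (424 UMIs), against 1079 CPM in control (288 UMIs). The counting interval of each knockout library overlapped that of control there, and a Scd2 UMI was seen in 88.3% of cells in the 2-week knockout and 83.1% in the 3-week knockout, against 87.3% in control. Below them the order of classes differed between libraries. Fibroblast-like cells had 61.2 CPM in the 2-week knockout and 99.3 CPM in the 3-week knockout, against 65.3 CPM in control, blood endothelial-like cells 68.5 CPM in the 2-week knockout and 68.7 CPM in the 3-week knockout, against 49.1 CPM in control, and melanocyte-like cells 22.4 CPM in the 2-week knockout and 68.4 CPM in the 3-week knockout, against 54.8 CPM in control. Sebaceous gland-like cells had 0 Scd2 UMIs among 99 control cells, where 3 UMIs would give 1.54 CPM, and 3.67 CPM in the 3-week knockout (10 UMIs). Sebaceous gland-like and bulge-like cells (3.95 CPM in the 3-week knockout, against 1.39 CPM in control) were the lowest classes for Scd2 in both libraries, and their order is not resolved at this depth.

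**Figure D1:**
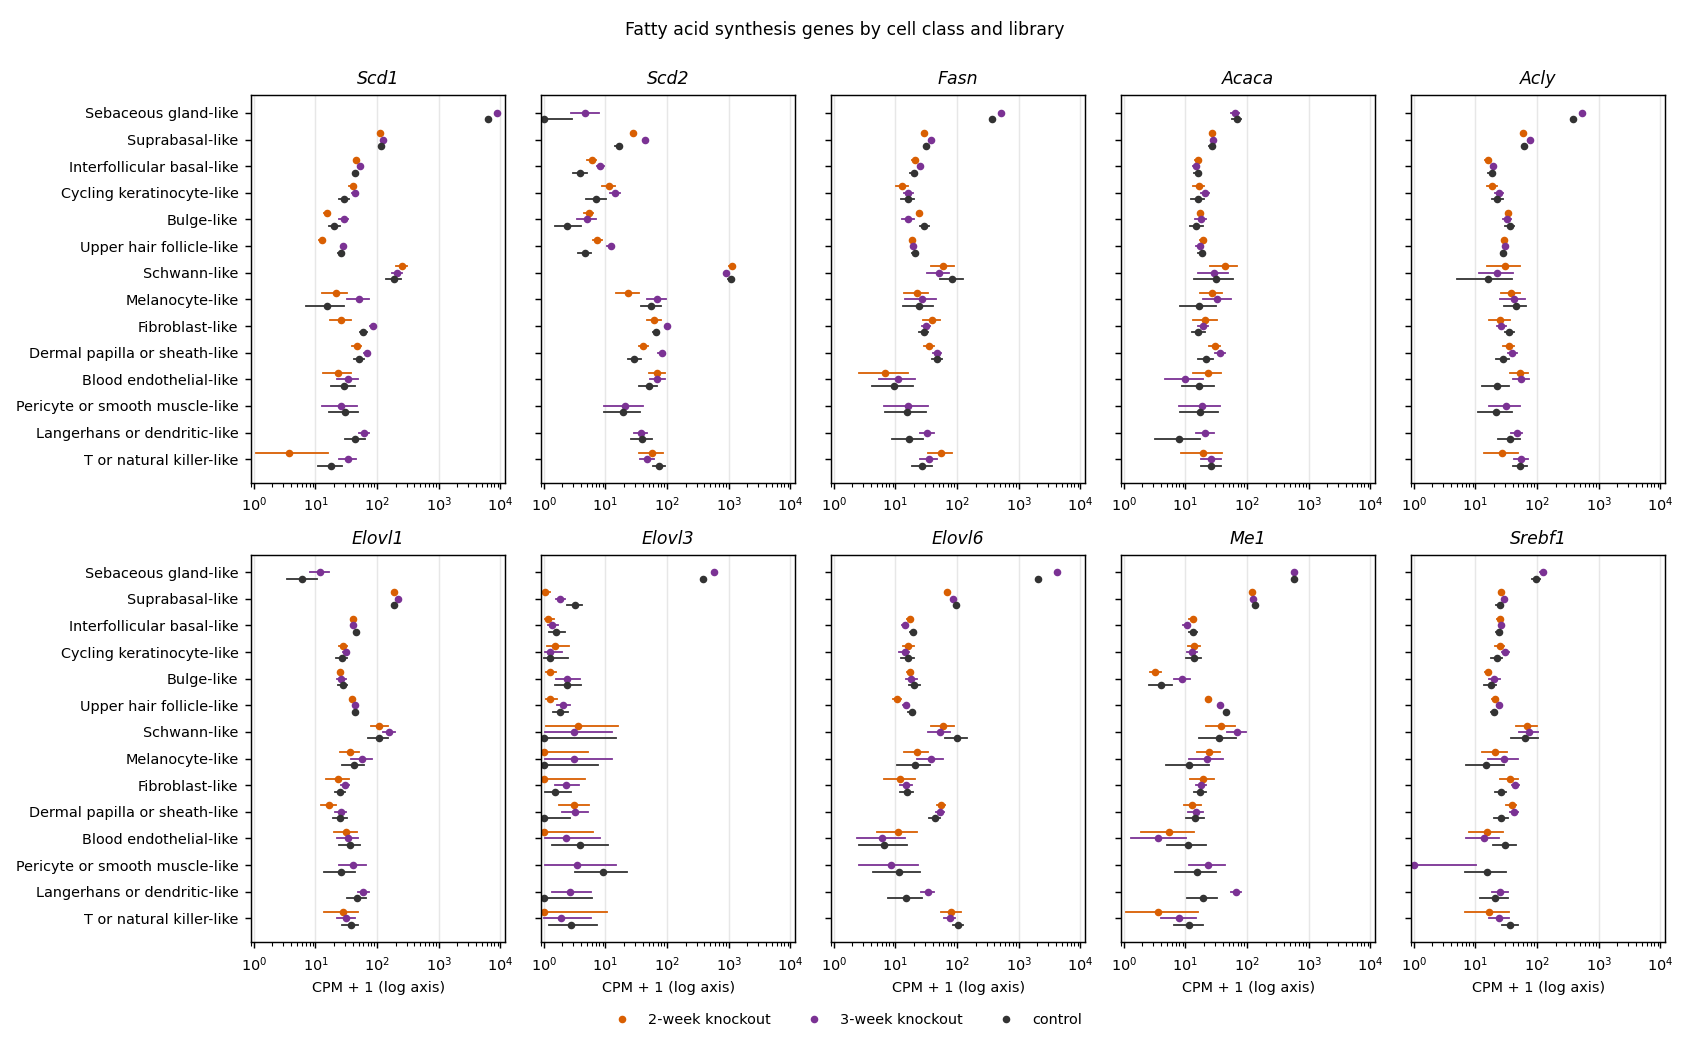
Level of each of the 10 members (panels) in each skin cell class (rows), as CPM + 1 on a log axis; points are the 3 libraries, lines their 95% Poisson intervals, and a class is drawn only where the library has at least 50 of its cells. Scd1, Elovl3 and Elovl6 peak in sebaceous gland-like cells, Scd2 in Schwann-like cells and Elovl1 in suprabasal-like cells.

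The elongases also differed in where they were found. Elovl3 (chromosome 19, 46131897 to 46135694, plus strand), which extends saturated chains for sebum lipids, was at 577 CPM in the 3-week knockout and 383 CPM in control in sebaceous gland-like cells. These cells held 94.5% of its UMIs in the 3-week knockout and 92.2% in control. In suprabasal-like cells it stood at 0.845 CPM in the 3-week knockout and 2.17 CPM in control. Elovl6 (chromosome 3, 129532355 to 129638495, plus strand) extends palmitate to stearate. Its highest level was in the same cells, at 4185 CPM in the 3-week knockout, against 2081 CPM in control, and suprabasal-like cells had 66.9 CPM in the 2-week knockout and 83.7 CPM in the 3-week knockout, against 93.7 CPM in control. T or natural killer-like cells were close to them, at 79.6 CPM in the 2-week knockout and 75.5 CPM in the 3-week knockout, against 102 CPM in control, although 1 control cell gave 23.3% of the control count. The last 300 bases of Elovl6 share a stretch of at least 95% identity with Gm11295, and those of Acaca with Gm5182, so reads of these pairs may be split or dropped.

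Elovl1 (chromosome 4, 118428093 to 118432953, plus strand) makes the very long saturated chains of ceramides and was an epidermal gene here. Suprabasal-like cells had 189.7 CPM in the 2-week knockout (3950 UMIs) and 214 CPM in the 3-week knockout (7617 UMIs), against 184 CPM in control (2206 UMIs), and they held 63.1% of all its UMIs in the 2-week knockout and 73.3% in the 3-week knockout, against 56.4% in control. Interfollicular basal-like cells had 39.6 CPM in the 2-week knockout and 39.8 CPM in the 3-week knockout, against 45.3 CPM in control, and upper hair follicle-like cells 37.6 CPM in the 2-week knockout and 42.4 CPM in the 3-week knockout, against 42.8 CPM in control. Schwann-like cells were the other class with a high level, at 108 CPM in the 2-week knockout and 156 CPM in the 3-week knockout, against 105 CPM in control. Sebaceous gland-like cells were lowest, at 10.6 CPM in the 3-week knockout and 5.13 CPM in control. The class with the most Elovl3 was thus the class with the least Elovl1.

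The enzymes that make and extend palmitate were present in every class with at least 100 cells in each library. Fasn (chromosome 11, 120805846 to 120824547, minus strand) was at 509 CPM in the 3-week knockout and 365 CPM in control in sebaceous gland-like cells, and between 11.7 and 53.0 CPM in the 8 named classes compared below. Acly (chromosome 11, 100476353 to 100528000, minus strand) was at 543 CPM in the 3-week knockout and 383 CPM in control in sebaceous gland-like cells, with suprabasal-like cells next among keratinocytes at 58.9 CPM in the 2-week knockout and 75.7 CPM in the 3-week knockout, against 60.4 CPM in control. Acaca (chromosome 11, 84129672 to 84401651, plus strand), the committed step, varied least of the palmitate enzymes: its sebaceous gland-like level was 63.1 CPM in the 3-week knockout and 66.7 CPM in control, and its suprabasal-like level 26.4 CPM in the 2-week knockout and 27.5 CPM in the 3-week knockout, against 26.4 CPM in control. Me1 (chromosome 9, 86581371 to 86695953, minus strand) was at 571 CPM in the 3-week knockout and 569 CPM in control in sebaceous gland-like cells and at 119 CPM in the 2-week knockout and 123 CPM in the 3-week knockout, against 131 CPM in control in suprabasal-like cells. In bulge-like cells Me1 was at only 2.26 CPM in the 2-week knockout and 7.91 CPM in the 3-week knockout, against 3.01 CPM in control. Srebf1 (chromosome 11, 60199089 to 60222581, minus strand) encodes SREBP1, the transcription factor that activates many of these genes. The Srebf1 level was highest in sebaceous gland-like cells, at 124 CPM in the 3-week knockout and 94.4 CPM in control, and next in Schwann-like cells, at 68.6 CPM in the 2-week knockout and 72.8 CPM in the 3-week knockout, against 63.7 CPM in control.

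The members with the most similar distributions were Fasn and Elovl6. Over 45 points, each a class in a library with at least 50 cells, Pearson's r of their log2(CPM + 5) was 0.90, the highest of any of 7717 genes for Fasn. The points share 3 libraries and their depth, and the sebaceous gland-like points lie far from the others, so these values are descriptions. Next to Fasn came Acss2, which makes acetyl-CoA from acetate (0.87), and Lss of cholesterol synthesis (0.86), and next to Elovl6 came Lss (0.90) and Ldah (0.86) beside Fasn. Scd1 was most like Emc9 (0.90), Fa2h, a fatty acid hydroxylase (0.89), and Gpam, which starts glycerolipid synthesis (0.89). Elovl3 was most like Gm5678 (0.97), the wax synthase Awat1 (0.97) and Ces1d (0.97). Acly was most like Mvd (0.87), Reep6 (0.86) and Entpd5 (0.84), Acaca like Naxd (0.78), Fasn (0.72) and Ccdc47 (0.72). Me1 was most like Ubqln1 (0.88), Nudt17 (0.85) and the ceramidase Acer1 (0.84), and Srebf1 like Gpd1 (0.76), Scd1 (0.74) and Fa2h (0.74). The other members were not like these: Scd2 was nearest to Rap1gds1 (0.86), Il16 (0.85) and Gm47644 (0.82), and Elovl1 to 1810037I17Rik (0.88), Fam89a (0.81) and Mboat2 (0.81). Scd1 and Scd2 had an r of 0.02, and Elovl1 and Elovl3 one of -0.39.

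The promoters of Fasn and Elovl6, the most alike members, and of Elovl1, which was not like them, are shown because SREBP proteins are known to act on lipogenic promoters together with the factors NF-Y and Sp1. The sequences are the 250 bases before a start site in RefSeq's annotation of GRCm38.p6, in the direction of transcription, and capitals mark matches to the NF-Y box CCAAT or the GC box GGGCGG on either strand. The Fasn window is chr11:120824548-120824797 (minus strand), the Elovl6 window chr3:129532136-129532385 (plus strand) and the Elovl1 window chr4:118427843-118428092 (plus strand).
Fasn: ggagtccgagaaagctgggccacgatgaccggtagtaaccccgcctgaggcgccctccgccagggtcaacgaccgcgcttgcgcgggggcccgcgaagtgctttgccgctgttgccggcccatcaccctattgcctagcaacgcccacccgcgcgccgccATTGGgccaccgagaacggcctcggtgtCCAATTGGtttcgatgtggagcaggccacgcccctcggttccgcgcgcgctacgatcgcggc
Elovl6: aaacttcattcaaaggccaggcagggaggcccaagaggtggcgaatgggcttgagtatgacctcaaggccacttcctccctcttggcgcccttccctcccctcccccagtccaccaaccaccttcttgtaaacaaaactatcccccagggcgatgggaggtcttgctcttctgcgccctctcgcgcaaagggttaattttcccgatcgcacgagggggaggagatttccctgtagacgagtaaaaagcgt
Elovl1: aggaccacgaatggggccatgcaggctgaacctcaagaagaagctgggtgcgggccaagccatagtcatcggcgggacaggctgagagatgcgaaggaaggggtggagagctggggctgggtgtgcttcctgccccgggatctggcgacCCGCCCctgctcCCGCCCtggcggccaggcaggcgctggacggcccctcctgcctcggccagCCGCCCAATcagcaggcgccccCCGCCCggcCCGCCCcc
The Fasn window held 3 NF-Y boxes, at -90, -62 and -59 relative to the start, the last of which overlaps the one before it by 2 bases on the opposite strand. The Elovl1 window held 5 GC boxes, at -101, -89, -39, -17 and -8, and an NF-Y box at -35 that overlaps a GC box. The Elovl6 window held neither. Of 32851 mouse promoter windows of the same length, 33.8% held CCAAT and 32.7% GGGCGG, so these matches are common. The sterol element TCACNCCAC (1.05% of windows) and the E-box CACGTG (6.02%), searched on both strands, were in none of the 11 windows of the 7 members that matched the table. Scd1, Scd2 and Elovl3 had no entry there.

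For the comparisons with control, a member counts in a class where the class had at least 100 cells in each library and the member at least 50 UMIs over both libraries. In the 2-week knockout this left 68 pairs of member and class in 8 named classes, of which 6 (8.82%) were higher by 1.5-fold or more and 6 (8.82%) were lower by as much. Over all genes in these classes 9.1% were that much higher and 6.91% that much lower. In the 3-week knockout, 11 of 71 pairs (15.5%) were higher and 4 (5.63%) lower, beside 12.5% and 8.89% of all genes. Counts of members were thus near the background in all 4 cases. Of the pairs called higher, 5 of 6 in the 2-week knockout and 6 of 11 in the 3-week knockout were Scd2. No other member was called higher in more than 2 classes of either comparison.

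**Figure D2:**
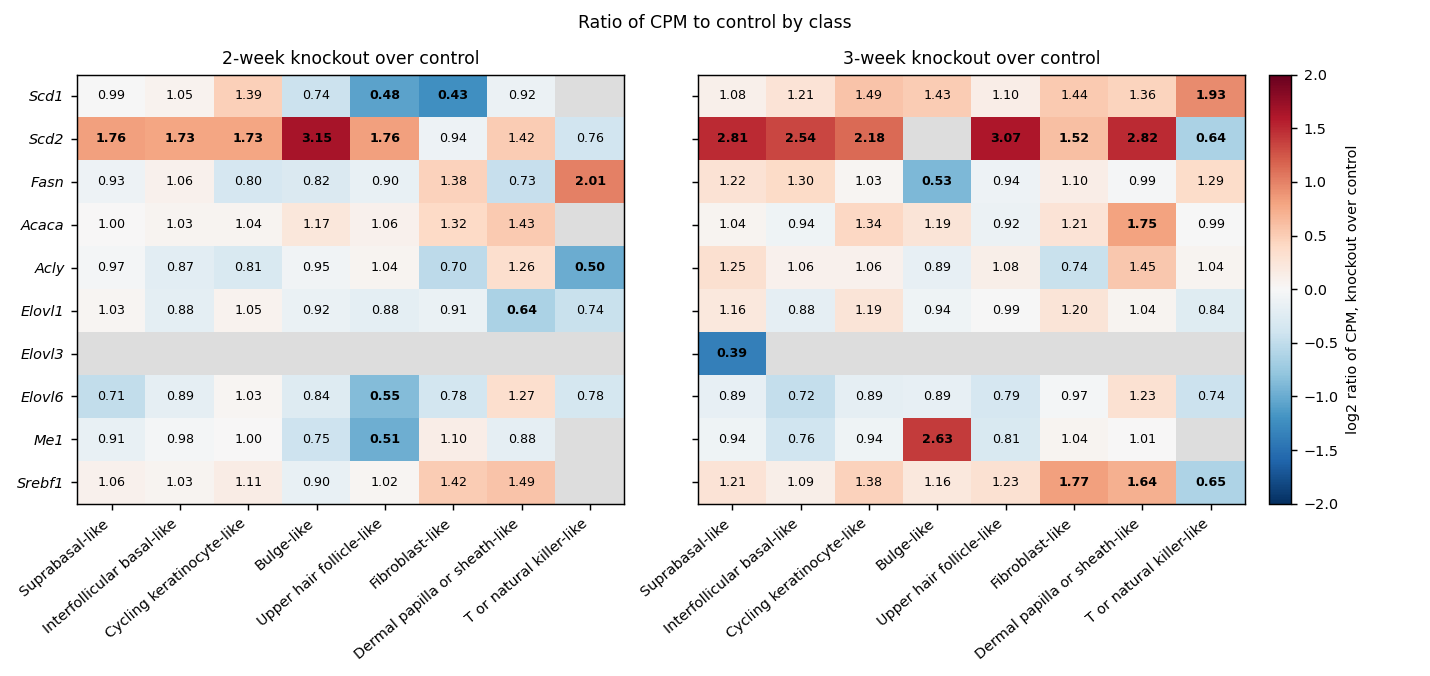
Ratio of each member's level in the 2-week knockout (left) and the 3-week knockout (right) to control, in the 8 named classes with at least 100 cells in each library; colour is the log2 ratio, the printed number the ratio, bold marks at least 1.5-fold either way and grey fewer than 50 UMIs. The Scd2 row is above 1.5 in every keratinocyte column of the 3-week panel that was ranked, and most other cells of the map are near 1.

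Scd2 was higher in both knockout libraries in the keratinocyte classes where it was ranked, but not in every cluster of the 2-week knockout. In suprabasal-like cells its level was 27.0 CPM in the 2-week knockout (562 UMIs) and 42.9 CPM in the 3-week knockout (1524 UMIs), against 15.3 CPM in control (183 UMIs). The ratio to control was 1.76 (95% interval 1.49 to 2.10) in the 2-week knockout and 2.81 (95% interval 2.41 to 3.29) in the 3-week knockout, where 6.78% and 10% of all genes of the class were at least 1.5-fold higher. A Scd2 UMI was found in 15.5% and 22.4% of these cells in the 2-week and 3-week knockout, against 10.7% in control, although median depth was 13300 UMIs in the 2-week knockout and 16119 UMIs in the 3-week knockout, against 18911 UMIs in control. With each cell thinned to 2000 UMIs, the shares were 2.95% in the 2-week knockout and 4.20% in the 3-week knockout, against 1.09% in control. The thinning left out 85 shallower cells of the 2-week knockout, 56 of the 3-week knockout and 8 of control. In sebaceous gland-like cells, which had little or no Scd2, 6.03% of the 3-week knockout cells (median 20131 UMIs) and 0 of 99 control cells (median 17435 UMIs) had a UMI, and 0 of 99 allows a share of up to 3.03%, taking 3 cells as the limit of a count of 0. After thinning the 3-week sebaceous gland-like share was 0.952%, close to the control suprabasal-like share, but both rest on few cells with a UMI. Without thinning the levels were apart, at 3.67 CPM in the 3-week sebaceous gland-like and 15.3 CPM in the control suprabasal-like cells. The 2-week suprabasal-like call ended at 1.44 when cells were limited to mitochondrial shares under 10%.

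The suprabasal-like class joins 4 clusters, and the clusters led by Lor and Lce1m and by Krt77 and Tesc held most of its Scd2. Lor and Lce1m encode proteins of the cornified envelope, made late in differentiation. In the Lor cluster it stood at 48.3 CPM in the 2-week knockout and 75.1 CPM in the 3-week knockout, against 32.8 CPM in control. In the Krt77 cluster the values were 49.8 CPM in the 2-week knockout and 81.3 CPM in the 3-week knockout, against 45.0 CPM in control. In the clusters led by Mt4 and Krt1 and by Krt1 and Hpgds it was at 3.72 and 5.30 CPM in the 2-week knockout and 7.10 and 14.1 CPM in the 3-week knockout, against 1.41 and 0.782 CPM in control. The 3-week knockout was above control in each of the 4 clusters, with ratios of 2.29 (1.86 to 2.85) in the Lor cluster and 1.81 (1.42 to 2.33) in the Krt77 cluster. In the 2-week knockout the ratios were 1.47 (1.15 to 1.90) in the Lor cluster and 1.11 (0.862 to 1.44) in the Krt77 cluster, both below the 1.5-fold line that the class as a whole passed. The Krt77 and Lor clusters had 159 and 68 of the 1033 suprabasal-like cells in the 2-week knockout and 220 and 230 of 1557 in the 3-week knockout, against 32 and 41 of 467 in control. The Mt4 cluster held 543 of 1033 suprabasal-like cells in the 2-week knockout and 766 of 1557 in the 3-week knockout, whereas the Krt1 and Hpgds cluster was the largest in control, with 246 of 467.

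**Figure D3:**
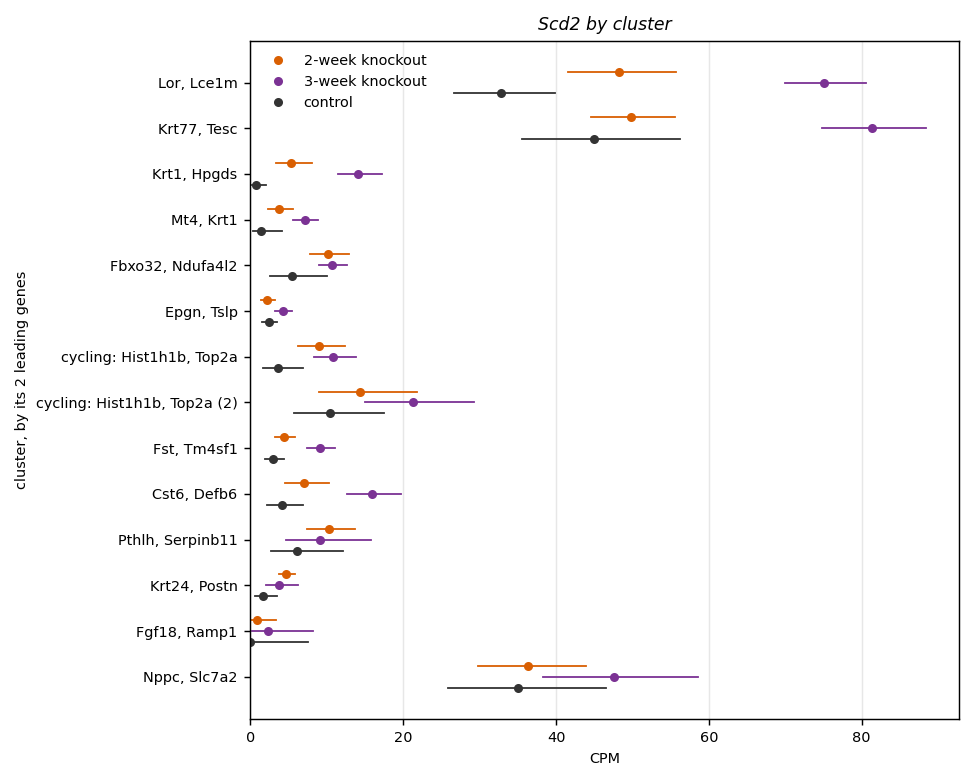
Scd2 level (CPM) in 14 clusters, from the keratinocyte classes and including the unnamed Nppc cluster, for libraries with at least 30 cells, with 95% Poisson intervals. Each cluster is named by its leading genes. The bulge-like cluster led by Angptl7 and Postn and the sebaceous gland-like cluster are not drawn. The Krt77, Lor and Nppc clusters have the highest levels in all 3 libraries, and the 3-week knockout lies above control in the Krt77 and Lor clusters.

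The unnamed Nppc cluster had 36.4 CPM of Scd2 in the 2-week knockout and 47.6 CPM in the 3-week knockout, against 35.1 CPM in control. In the other keratinocyte classes Scd2 was far lower, and the class levels of the knockout libraries were again above control. Interfollicular basal-like cells had 4.96 CPM in the 2-week knockout (91 UMIs) and 7.27 CPM in the 3-week knockout (190 UMIs), against 2.86 CPM in control (35 UMIs), which gave ratios of 1.73 (95% interval 1.16 to 2.64) in the 2-week knockout and 2.54 (95% interval 1.76 to 3.75) in the 3-week knockout, beside 8.43% and 14.5% of genes that much higher. The 2-week call ended at 1.27 when clusters were weighed equally and at 1.40 when no doublets were left out. The ratios were not alike in the 2 basal-like clusters of the 2-week knockout: 0.907 (0.503 to 1.64) in the cluster led by Epgn and Tslp, which was the larger one in control, and 1.86 (0.949 to 4.06) in the one led by Fbxo32 and Ndufa4l2. Upper hair follicle-like cells had 6.36 CPM in the 2-week knockout (113 UMIs) and 11.1 CPM in the 3-week knockout (190 UMIs), against 3.61 CPM in control (45 UMIs), with ratios of 1.76 (95% interval 1.24 to 2.55) in the 2-week knockout and 3.07 (95% interval 2.21 to 4.35) in the 3-week knockout, beside 11% and 10.5% of genes, and the 2-week call ended at 1.45 with at least 1000 genes per cell. Cycling keratinocyte-like cells had 10.5 CPM in the 2-week knockout and 13.2 CPM in the 3-week knockout, against 6.05 CPM in control, with ratios of 1.73 (95% interval 1.05 to 2.94) in the 2-week knockout and 2.18 (95% interval 1.38 to 3.60) in the 3-week knockout, beside 6.13% and 9.58% of genes. Bulge-like cells had 87 UMIs in the 2-week knockout (4.37 CPM), 20 in the 3-week knockout (3.95 CPM) and 6 in control (1.39 CPM). The bulge ratio was 3.15 (95% interval 1.39 to 8.81) in the 2-week knockout, beside 8.28% of genes, and the 3-week knockout had too few UMIs to be ranked. Levels in bulge-like cells and in control basal-like and upper hair follicle-like cells were near the 3.67 CPM of 3-week sebaceous gland-like cells, and at that level they are not distinguished from free RNA.

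RNA of other cells was measured in the same keratinocytes. The 10 fibroblast markers, of which at most 2 were at 0 in a library, summed in suprabasal-like cells to 27.2 CPM in the 2-week knockout and 72.7 CPM in the 3-week knockout, against 73.5 CPM in control, and in basal-like cells to 141 CPM in the 2-week knockout and 216 CPM in the 3-week knockout, against 162 CPM in control. All 11 suprabasal markers were detected in every library of the basal-like, upper hair follicle-like and cycling classes. They summed in basal-like cells to 907 CPM in the 2-week knockout and 1091 CPM in the 3-week knockout, against 715 CPM in control, and in upper hair follicle-like cells to 2194 CPM in the 2-week knockout and 3906 CPM in the 3-week knockout, against 3154 CPM in control. In cycling keratinocyte-like cells they summed to 1029 CPM in the 2-week knockout and 1172 CPM in the 3-week knockout, against 955 CPM in control. Their part in the Scd2 levels was not tested.

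In the dermis Scd2 was higher in the 3-week knockout. Dermal papilla or sheath-like cells had 40.4 CPM in the 2-week knockout (118 UMIs) and 80.2 CPM in the 3-week knockout (294 UMIs), against 28.5 CPM in control (63 UMIs), with a ratio of 2.82 (95% interval 2.14 to 3.76) in the 3-week knockout, beside 14.1% of genes. The 2-week knockout, at 1.42 times control, was below the 1.5-fold line, beside 6.59% of genes past it. Fibroblast-like cells had a ratio of 1.52 (95% interval 1.31 to 1.77) in the 3-week knockout, beside 19.3% of genes. This call ended when ratios were divided by the class median and when no doublets were left out. It also ended when the total left out mitochondrial, ribosomal, Malat1 and Gm42418 UMIs. The 11 suprabasal markers summed to 275 CPM in the 2-week knockout and 1517 CPM in the 3-week knockout, against 279.6 CPM in control in dermal papilla or sheath-like cells, and to 1247 CPM in the 2-week knockout and 1099.8 CPM in the 3-week knockout, against 351 CPM in control in fibroblast-like cells, with all 11 detected in each library but the 2-week fibroblast-like one, where 1 was at 0. Their sum was highest in the 3-week knockout in the dermal papilla or sheath-like cells, as Scd2 was, and in the 2-week knockout in the fibroblast-like cells. Their part was not tested. T or natural killer-like cells went the other way, with 55.7 CPM in the 2-week knockout and 46.9 CPM in the 3-week knockout, against 72.8 CPM in control, a ratio of 0.644 (95% interval 0.448 to 0.918) in the 3-week knockout beside 12.5% of genes that much lower. Most of the 3-week knockout's cells were in the cluster led by Ctla2a and Cd3g (203 of 284), which control split evenly with the one led by Icos and Cd52 (106 and 102), and within the Ctla2a cluster the values were 66.1 CPM in the 2-week knockout and 59.1 CPM in the 3-week knockout, against 133 CPM in control. The suprabasal markers summed in T or natural killer-like cells to 724 CPM in the 2-week knockout and 1608 CPM in the 3-week knockout, against 2289.9 CPM in control. The fibroblast markers summed there to 50.4 CPM in the 2-week knockout and 89.4 CPM in the 3-week knockout, against 227 CPM in control, with 6 of 10 at 0 in the 2-week knockout, 2 in the 3-week knockout and 0 in control. Both sums were lower in the 3-week knockout than in control, as Scd2 was, and their part was not tested.

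Scd1 differed less from control than Scd2 in the epidermis. In suprabasal-like cells the ratio was 0.994 (95% interval 0.930 to 1.06) in the 2-week knockout and 1.08 (95% interval 1.01 to 1.15) in the 3-week knockout. A single control cell of the Lor cluster held 254 Scd1 UMIs, or 18.8% of the control count of the class. In that cluster Scd1 stood at 122 CPM in the 2-week knockout and 152 CPM in the 3-week knockout, against 205 CPM in control, and, once the cell with the most Scd1 was left out of each library, at 119.5 CPM in the 2-week knockout and 145 CPM in the 3-week knockout, against 125 CPM in control. Elovl3 in control suprabasal-like cells was also uneven: 1 cell held 73.7% of the 19 Elovl3 UMIs of the Lor cluster. Elovl3 in suprabasal-like cells was lower in the 3-week knockout by size alone, at 0.389 (95% interval 0.222 to 0.684) beside 9.79% of genes, and the ratio was 0.697 without the top cell of each library and 1.10 when every cell weighed the same.

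Scd1, Elovl6 and Me1 were lower together in upper hair follicle-like cells of the 2-week knockout. Scd1 had 11.8 CPM in the 2-week knockout and 27.2 CPM in the 3-week knockout, against 24.7 CPM in control, with a 2-week ratio of 0.476 (95% interval 0.397 to 0.569). Elovl6 had 9.56 CPM in the 2-week knockout and 13.7 CPM in the 3-week knockout, against 17.4 CPM in control, with a ratio of 0.549 (95% interval 0.447 to 0.675). Me1 had 22.6 CPM in the 2-week knockout and 35.8 CPM in the 3-week knockout, against 44.3 CPM in control, with a ratio of 0.509 (95% interval 0.447 to 0.580). The 2-week knockout was the lowest library for each of these members, and 3 of 9 members ranked were lower, beside 5.59% of all genes. The Elovl6 call ended when clusters were weighed equally (0.762) and when every cell weighed the same (0.674). The other members of this class ran from 0.877 (Elovl1) to 1.06 (Acaca) beside Scd2. Most of the Me1 UMIs were in the cluster led by Cst6 and Defb6, where Me1 stood at 82.9 CPM in the 2-week knockout and 98.9 CPM in the 3-week knockout, against 131 CPM in control. In that cluster Elovl6 stood at 13.5 CPM in the 2-week knockout and 20.1 CPM in the 3-week knockout, against 33.4 CPM in control, and Scd1 at 13.5 CPM in the 2-week knockout and 31.0 CPM in the 3-week knockout, against 38.1 CPM in control. There 1 control cell held 55.4% of the Scd1 UMIs, and without the top cell of each library the Scd1 values were 12.5 CPM in the 2-week knockout and 30.1 CPM in the 3-week knockout, against 17.2 CPM in control. This cluster made up 310 of 2080 cells of the class in the 2-week knockout and 445 of 1740 in the 3-week knockout, against 218 of 1075 in control, and the cluster led by Pthlh made up 606 in the 2-week knockout and 204 in the 3-week knockout, against 159 in control. The 11 suprabasal markers summed in the class to 2194 CPM in the 2-week knockout and 3906 CPM in the 3-week knockout, against 3154 CPM in control, and were lowest in the 2-week knockout too. The 11 sebaceous markers summed to 1098 CPM in the 2-week knockout and 1312 CPM in the 3-week knockout, against 1026 CPM in control, and 4 of them picked with these data known, Awat1, Awat2, Cidea and Mc5r, to 2.14 CPM in the 2-week knockout and 3.21 CPM in the 3-week knockout, against 4.57 CPM in control. The full list was thus not lower in the 2-week knockout and the 4 were, and the part of either was not tested.

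**Figure D4:**
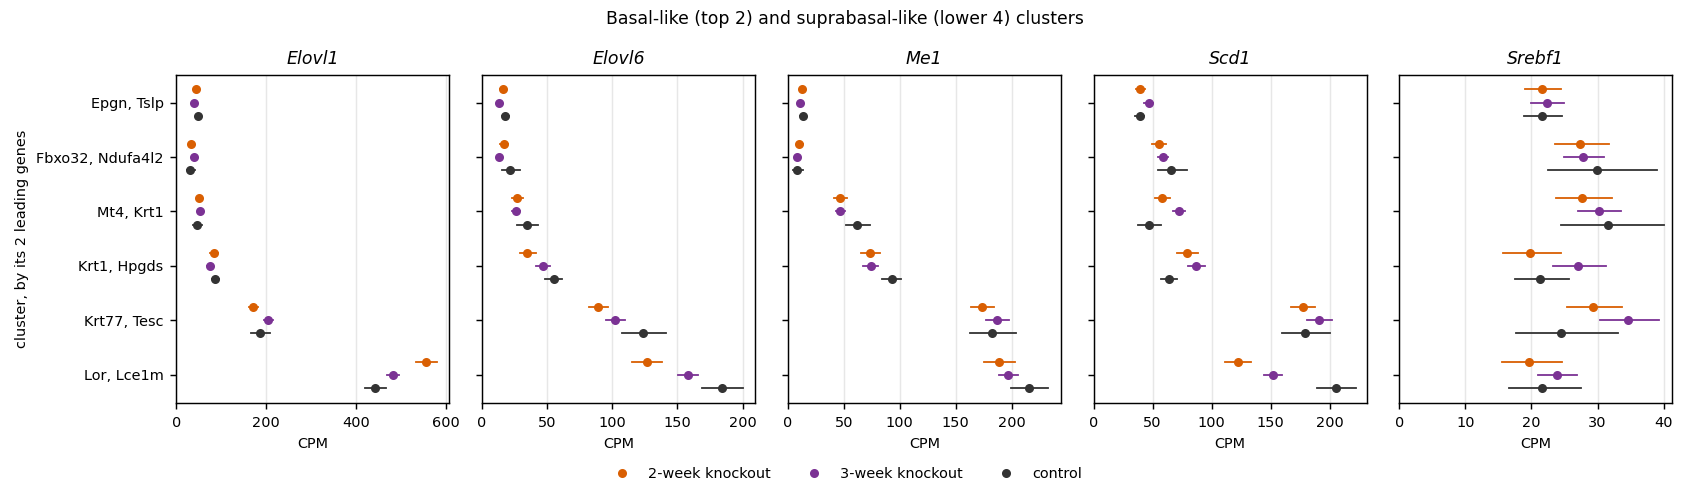
Levels (CPM) of Elovl1, Elovl6, Me1, Scd1 and Srebf1 in the 2 basal-like and 4 suprabasal-like clusters, named by leading genes, with 95% Poisson intervals for each library. Elovl1, Elovl6 and Me1 are higher in the Krt77 and Lor clusters than in the basal-like ones in all 3 libraries, and Srebf1 differs less between clusters than these.

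Within the suprabasal-like cells Elovl1, Me1 and Elovl6 differed between clusters more than between libraries. Elovl1 was at 556 CPM in the 2-week knockout and 484 CPM in the 3-week knockout, against 444 CPM in control in the Lor cluster, and at 51.0 CPM in the 2-week knockout and 53.8 CPM in the 3-week knockout, against 46.6 CPM in control in the Mt4 cluster. Me1 was at 189 CPM in the 2-week knockout and 197 CPM in the 3-week knockout, against 215 CPM in control in the Lor cluster, and at 46.9 CPM in the 2-week knockout and 46.6 CPM in the 3-week knockout, against 62.2 CPM in control in the Mt4 cluster. Elovl6 followed the same order, with 126 CPM in the 2-week knockout and 158 CPM in the 3-week knockout, against 184 CPM in control in the Lor cluster and 27.0 CPM in the 2-week knockout and 26.3 CPM in the 3-week knockout, against 34.4 CPM in control in the Mt4 cluster. Its class level was lower in the 2-week knockout at a ratio of 0.714 (95% interval 0.659 to 0.773), short of the 1.5-fold line, and the 2-week knockout was below control in each of the 4 clusters. For the suprabasal-like class as a whole, 1 of 9 ranked members was higher and 0 lower in the 2-week knockout, beside 6.78% and 6.61% of genes, and in the 3-week knockout 1 of 10 was higher and 1 lower, beside 10% and 9.79%. In interfollicular basal-like cells Scd2 was the 1 member called in either library, and 0 were lower, beside 4.09% of genes in the 2-week knockout and 8.36% in the 3-week knockout. The other 8 ranked there ran from 0.866 (Acly) to 1.06 (Fasn) in the 2-week knockout and from 0.722 (Elovl6) to 1.30 (Fasn) in the 3-week knockout.

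The hair follicle bulge is known as a niche of stem cells, and in bulge-like cells 2 of 8 ranked members passed the line in the 3-week knockout. Fasn had 23.4 CPM in the 2-week knockout (465 UMIs) and 15.2 CPM in the 3-week knockout (77 UMIs), against 28.5 CPM in control (123 UMIs), and its 3-week ratio was 0.534 (95% interval 0.397 to 0.716), beside 9.87% of genes that much lower. The 3-week knockout was the lowest library, and in the largest bulge-like cluster Fasn stood at 23.5 CPM in the 2-week knockout and 15.03 CPM in the 3-week knockout, against 29.6 CPM in control. Me1 had 2.26 CPM in the 2-week knockout (45 UMIs) and 7.91 CPM in the 3-week knockout (40 UMIs), against 3.01 CPM in control (13 UMIs), with a 3-week ratio of 2.63 (95% interval 1.38 to 5.35) beside 11.7% of genes. The 11 suprabasal markers summed in bulge-like cells to 1096 CPM in the 2-week knockout and 2014 CPM in the 3-week knockout, against 1144 CPM in control, highest in the same library as Me1, and their part was not tested. In the 2-week knockout Scd2 was the only bulge member called, and 0 were lower beside 5.12% of genes. In the 3-week knockout 0 members were lower in upper hair follicle-like cells (8.88% of genes), cycling keratinocyte-like cells (9.18%), fibroblast-like cells (4.68%) and dermal papilla or sheath-like cells (9.46%). An unnamed cluster led by Nppc and Slc7a2 (323 cells in the 2-week knockout, 197 in the 3-week knockout, 118 in control) had 0 of 9 members higher and 0 lower in both, beside 7.53% and 6.62% of genes in the 2-week knockout and 11.4% and 14.2% in the 3-week knockout.

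Other calls were in dermal and immune classes. In dermal papilla or sheath-like cells of the 3-week knockout 3 of 9 members were higher, beside 14.1% of genes: Scd2, Acaca, with 29.1 CPM in the 2-week knockout and 35.5 CPM in the 3-week knockout, against 20.3 CPM in control and a ratio of 1.75 (95% interval 1.24 to 2.51), and Srebf1, with 37.6 CPM in the 2-week knockout and 41.5 CPM in the 3-week knockout, against 25.3 CPM in control and a ratio of 1.64 (95% interval 1.200 to 2.27). The median log2 ratio of the 9 members, on the scale of log2(CPM + 5), was 0.41, beside 0.03 for all genes of the class. Srebf1 was also higher in fibroblast-like cells, with 35.1 CPM in the 2-week knockout and 43.6 CPM in the 3-week knockout, against 24.7 CPM in control and a 3-week ratio of 1.77 (95% interval 1.39 to 2.26), beside 19.3% of genes. There the 3-week median of the members was 0.21 beside 0.17 for all genes. Scd1 in fibroblast-like cells was lower in the 2-week knockout, with 25.1 CPM in the 2-week knockout (25 UMIs) and 84.1 CPM in the 3-week knockout (444 UMIs), against 58.4 CPM in control (234 UMIs) and a ratio of 0.430 (95% interval 0.272 to 0.650) beside 10.2% of genes. The fibroblast-like cells of the 2-week knockout were few and of another mix: 38 of 159 were in the cluster led by Col1a2, against 284 of 441 in control, and 50 in the one led by Coch and Fmod, against 20 in control. Elovl1 in dermal papilla or sheath-like cells was lower in the 2-week knockout, with 15.4 CPM in the 2-week knockout (45 UMIs) and 24.8 CPM in the 3-week knockout (91 UMIs), against 23.9 CPM in control (53 UMIs) and a ratio of 0.643 (95% interval 0.423 to 0.976) beside 7.75% of genes, a call that ended at 0.667 under scaling by the class median. Among classes too small to be compared, Me1 in Langerhans or dendritic-like cells was at 64.6 CPM in the 3-week knockout (162 cells), against 18.2 CPM in control (70 cells). In this class 3 of 8 ranked members were higher and 0 lower, beside 17.6% and 16.5% of genes. The suprabasal markers summed there to 14326 CPM in the 3-week knockout, against 4122 CPM in control, with 0 and 1 of 11 at 0. They were higher in the same library as Me1, which is high in suprabasal-like cells, and their part was not tested.

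T or natural killer-like cells gave calls in both directions from small counts. Fasn had 53.0 CPM in the 2-week knockout (20 UMIs) and 33.9 CPM in the 3-week knockout (39 UMIs), against 26.3 CPM in control (30 UMIs), with a 2-week ratio of 2.01 (95% interval 1.08 to 3.67) beside 11.4% of genes. Acly had 26.5 CPM in the 2-week knockout (10 UMIs) and 54.7 CPM in the 3-week knockout (63 UMIs), against 52.6 CPM in control (60 UMIs), with a 2-week ratio of 0.504 (95% interval 0.230 to 0.992) beside 18.3% of genes, which ended at 0.670 when clusters were weighed equally. Scd1 had 37 UMIs in the 3-week knockout and 19 in control, a ratio of 1.93 (95% interval 1.08 to 3.55) beside 9.79% of genes. Srebf1 had 27 UMIs in the 3-week knockout and 41 in control, a ratio of 0.652 (95% interval 0.385 to 1.08) whose interval includes 1 and which reached 0.741 under the alternatives. The 2-week knockout had 92 of its 100 cells in the Ctla2a cluster.

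Sebaceous gland-like cells numbered 99 in control, so they entered only when the minimum was set at 50 cells, a choice made after the number was seen. In the 3-week knockout Elovl6 was at 2.01 (95% interval 1.94 to 2.08) times control and Elovl3 at 1.51 (95% interval 1.38 to 1.64), the 2 of 8 ranked members past 1.5-fold, beside 8.25% of genes, and 0 were lower, beside 10.5%. Scd1 was at 1.42, Acly at 1.42, Fasn at 1.40 and Srebf1 at 1.31 times control, and Me1 and Acaca at 1.004 and 0.946. The members' median log2 ratio was 0.49, beside -0.04 for all genes of the class. Cells were far from uniform: Scd1 per cell had a median of 1082 CPM and an upper quartile of 8517 CPM in the 3-week knockout, against 1014 and 6643 CPM in control. For Elovl6 the median was 441 CPM in the 3-week knockout, against 127 CPM in control, and 77.6% of cells in the 3-week knockout and 67.7% in control had a UMI. Of the 11 sebaceous markers, 9 were above control in the 3-week knockout and 2 below, counted by direction alone without the 1.5-fold line. Those below were Plin2 (1684 CPM in the 3-week knockout, against 2260.1 CPM in control) and Dgat2 (118 CPM in the 3-week knockout, against 158 CPM in control). The part of the 11 markers was not tested.

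Free RNA of sebaceous gland-like cells was followed through Awat1, Awat2, Cidea and Mc5r, 4 of the 11 sebaceous markers. In suprabasal-like cells the full list summed to 942 CPM in the 2-week knockout and 893 CPM in the 3-week knockout, against 796 CPM in control, and the 4 summed to 0.864 CPM in the 2-week knockout and 2.73 CPM in the 3-week knockout, against 4.01 CPM in control. For each of their UMIs there were 130 Scd1 UMIs in the 2-week knockout and 44.5 in the 3-week knockout, against 28.1 in control, and in sebaceous gland-like cells 8.06 in the 3-week knockout and 7.78 in control. In basal-like cells the ratio was 46.0 in the 2-week knockout and 34.1 in the 3-week knockout, against 32.9 in control. The full list summed there to 597 CPM in the 2-week knockout and 638 CPM in the 3-week knockout, against 419 CPM in control. These sums were above the Scd1 level of that class, which was between 43.0 and 52.2 CPM. The size of the ratio thus depends on which markers are taken. Per UMI of Mgst1, another sebaceous marker, suprabasal-like cells had 15.7 Scd1 UMIs in the 2-week knockout and 11.7 in the 3-week knockout, against 3.77 in control, and sebaceous gland-like cells 2.22 in the 3-week knockout and 1.83 in control. The part of free RNA in the epidermal Scd1 levels was not tested. With the 4 markers, in upper hair follicle-like cells the ratio was 5.50 and 8.47 in the 2-week and 3-week knockout, against 5.40 in control, which is near the sebaceous ratio. Per UMI of Mgst1 it was 0.214 and 0.447 in the 2-week and 3-week knockout, against 0.326 in control, below the sebaceous ratio. The 2 measures thus differ, and the part of free RNA in the Scd1 level of that class, its lower 2-week value included, was not tested. In T or natural killer-like cells the 4-marker ratio was 6.17 in the 3-week knockout and 2.71 in control, below the sebaceous ratio. It rests on 6 and 7 marker UMIs, of which 4 and 5 were Mc5r, and the part of free RNA in the Scd1 call there was not tested. In fibroblast-like cells the 4-marker ratio was 6.25 in the 2-week knockout (4 marker UMIs, all Mc5r) and 13.9 in the 3-week knockout, against 16.7 in control. Mc5r gave 176 of 184 marker UMIs in 3-week dermal papilla or sheath-like cells, against 312 of 2977 in sebaceous gland-like cells. In dermal and immune classes the 4 markers need not stem from sebaceous cells. Of the 8 adipocyte markers, between 1 and 7 were at 0 in a library, and the 8 summed to at most 18.0 CPM, in the keratinocyte, fibroblast-like and dermal papilla or sheath-like classes.

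For the rest of the pathway, calls in the epidermis are given beside the shares of all genes. Of 30 other genes of fatty acid synthesis and desaturation, 17 were ranked in basal-like and 17 in suprabasal-like cells. In the 2-week knockout 0 were higher and 0 lower in either. Of all genes 8.43% were higher and 4.09% lower in the basal-like cells, and 6.78% and 6.61% in the suprabasal-like cells. In the 3-week knockout 2 were higher in basal-like cells, beside 14.5% of genes. Among them was Elovl4, which extends the ultra-long chains of barrier ceramides, with 13.5 CPM in the 3-week knockout, against 6.71 CPM in control, a ratio of 2.01 (1.57 to 2.58). The 11 sebaceous markers summed in basal-like cells to 638 CPM in the 3-week knockout, against 419 CPM in control. Elovl4 is far higher in sebaceous gland-like cells, and the part of sebaceous RNA was not tested. In suprabasal-like cells of the 3-week knockout 2 of the 17 were higher, Oxsm and Mid1ip1, and Me2 was lower, beside 10% and 9.79% of genes. Over the 8 classes the list had 10 of 118 pairs higher and 5 lower in the 2-week knockout, and 20 of 125 higher and 5 lower in the 3-week knockout (16% and 4%). Over all genes 9.1% were higher and 6.91% lower in the 2-week knockout, and 12.5% and 8.89% in the 3-week knockout. In bulge-like cells of the 3-week knockout 6 of 13 were higher, beside 11.7% of genes, led by Mid1ip1, a stimulator of acetyl-CoA carboxylase (3.28), Elovl4 (2.67) and Elovl7 (2.29). The suprabasal markers, given above for Me1, were also higher in these cells. So were the 11 sebaceous markers, which summed to 512 CPM in the 3-week knockout, against 287 CPM in control, with 0 and 3 of them at 0. The part of either was not tested. Upper hair follicle-like cells of the 2-week knockout had Elovl4 lower, with 19.01 CPM in the 2-week knockout, against 36.4 CPM in control, a ratio of 0.522 (0.452 to 0.602). In sebaceous gland-like cells Elovl4 had 3904 CPM in the 3-week knockout, against 1306 CPM in control, a ratio of 2.99 (2.86 to 3.12), and Mid1ip1 (2.34) and G6pdx, an NADPH source (2.25), were higher too.

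The neighbouring lists are read beside the same shares of all genes. Of 20 genes that use acyl-CoA for triglycerides, wax and ceramides, 6 of 133 pairs (4.51%) were higher and 12 (9.02%) lower in the 2-week knockout, and 14 of 138 (10.1%) higher and 27 (19.6%) lower in the 3-week knockout. In suprabasal-like cells the ceramide synthase Cers4 had 1.82 CPM in the 2-week knockout, against 11.03 CPM in control, a ratio of 0.165 (0.112 to 0.239), and 3.07 CPM in the 3-week knockout, against 11.03 CPM in control, a ratio of 0.278 (0.214 to 0.361). Cers4 is among the 10 leading genes of the sebaceous gland-like cluster. The sebaceous marker Mgst1 was at 7.15 CPM in the 2-week knockout and 10.4 CPM in the 3-week knockout, against 29.9 CPM in control, in the same suprabasal-like cells. The full list of 11 sebaceous markers went the other way there. It summed to 942 CPM in the 2-week knockout and 893 CPM in the 3-week knockout, against 796 CPM in control. The part of sebaceous RNA in the Cers4 levels was not tested. Sptlc2, a subunit of the enzyme that starts ceramide synthesis, was lower in suprabasal-like cells, with 50.4 CPM in the 3-week knockout, against 89.2 CPM in control, a ratio of 0.566 (0.524 to 0.611), and the phosphatidate-forming Agpat2 was higher with 6.84 CPM in the 3-week knockout, against 3.26 CPM in control, a ratio of 2.10 (1.49 to 3.02). Of 17 genes of cholesterol synthesis and uptake, 15 of 110 pairs were higher and 12 lower in the 2-week knockout, and 19 of 119 higher and 13 lower in the 3-week knockout. Dhcr7, the last enzyme of one branch of that pathway, was higher in suprabasal-like cells with ratios of 1.52 in the 2-week knockout and 2.21 in the 3-week knockout, whereas Sqle was lower in bulge-like cells of the 3-week knockout, with 58.5 CPM in the 3-week knockout, against 182 CPM in control, a ratio of 0.322 (0.281 to 0.369). In dermal papilla or sheath-like cells of the 3-week knockout, where Acaca, Srebf1 and Scd2 were higher, 7 of 14 cholesterol genes were higher and 0 lower. In that class 14.1% of all genes were higher and 9.46% lower. The cholesterol genes of that class were led by Lss (3.29), Fdps (2.73) and Nsdhl (2.53). Fibroblast-like cells of the 2-week knockout also had 7 of 10 cholesterol genes higher and 0 lower, beside 16.5% and 10.2% of genes. There 0 of 9 ranked members were higher, so the 2 did not go together in every class. Of 16 genes that control lipid synthesis, 8 of 97 pairs were higher and 1 lower in the 2-week knockout, and 7 of 100 higher and 6 lower in the 3-week knockout. Of 11 genes of fatty acid oxidation, 4 of 67 pairs were higher and 0 lower in the 2-week knockout, and 3 of 67 higher and 3 lower in the 3-week knockout. In basal-like and in suprabasal-like cells 0 of 9 were called in either, beside the shares of all genes given above for these classes.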

How the data were processed

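Single cells of back skin, freed with collagenase I and then trypsin, gave 3 10x libraries. The deposited UMI counts per gene and barcode are raw, and per the submitters' processing notes they were made with Cell Ranger 6.1.2 and mm10. Neither the annotation release nor the use of intron reads is named there.

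Cells with fewer than 500 genes (960 in the 2-week knockout, 754 in the 3-week knockout and 363 in control) or at least 15% mitochondrial UMIs (973 in the 2-week knockout, 954 in the 3-week knockout and 415 in control) were left out. Scrublet then removed 301 doublets of the 2-week knockout, 356 of the 3-week knockout and 123 of control. With scanpy 1.11.5, 2000 variable genes without the 10 members were taken to 30 components and a graph of 15 neighbours, and Leiden clustering (leidenalg 0.10.2, resolution 1, seed 1) of all libraries together gave 33 clusters. A cluster was named X-like from marker genes, if 3 markers were each in at least 10% of its cells and its score led the second class by 0.25. It also needed a minimum score, and no other class could have more markers among its leading genes. Keratinocyte clusters with a high score of cycling markers were named cycling keratinocyte-like instead. Other clusters were left unnamed.

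CPM intervals are exact Poisson, ratio intervals exact conditional binomial and shares Clopper-Pearson, all at 95% (scipy 1.17.1). Without replicates no p-value was computed. PCR and cell sampling add error that these intervals leave out. The interval code was checked on simulated counts. All 10 members were described in every class. Of the 5 lists of pathway genes, up to 3 genes per direction and class with the largest ratio could be named, and for likeness the 3 highest correlations. Members, lists and markers were chosen with earlier results of these data known. Alternatives changed the filters, clustering, scaling and weights. Minimums of 50 cells and leaving out T or natural killer-like cells were chosen after seeing the data.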

Additional observations from a re-analysis of the deposited data

Results flagged for a closer look

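Scd2 in the 3-week knockout drew attention because its classes pointed opposite ways against the same control. It was 3.07 times control in upper hair follicle-like, 2.82 in dermal papilla or sheath-like, 2.81 in suprabasal-like, 2.54 in interfollicular basal-like, 2.18 in cycling keratinocyte-like and 1.52 in fibroblast-like cells, and 0.644 in T or natural killer-like cells. With 1 library per group the difference between classes was not tested. The 3-week T or natural killer-like value rests on 54 UMIs, against 83 in control.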

How the results depend on the processing

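With 1 library per group no replicate could be left out. No paired analysis was possible because each group has 1 library. Each setting was changed alone, and the cause of any change was not tested. Pairs of member and class at least 1.5-fold higher in the 2-week knockout numbered 6, and 1 with at least 200 UMIs. In the 3-week knockout they numbered 11, then 7 with at least 200 UMIs, a setting that ranks fewer pairs, and 17 with at least 50 cells, a setting that adds classes. Pairs at least 1.5-fold lower in the 3-week knockout numbered 4, then 2 with mitochondrial shares under 10%, 7 at resolution 2, 1 with at least 200 UMIs and 2 without T or natural killer-like cells. Pairs lower in the 2-week knockout (6) stayed between 4 and 9. Elovl3 in suprabasal-like cells of the 3-week knockout reversed to 1.10 when every cell weighed the same. Of the other member ratios under the alternatives, 1936 stayed within the counting interval of the main setting and 71 fell outside it. Scd2 ratios over the alternatives ran 2.16 to 4.19 (suprabasal-like, 3-week), 1.44 to 2.19 (suprabasal-like, 2-week), 2.54 to 3.49 (upper hair follicle-like, 3-week), 1.81 to 2.87 (basal-like, 3-week) and 1.27 to 1.97 (basal-like, 2-week). Calls ended for Scd2 in fibroblast-like cells of the 3-week knockout (down to 1.32), Scd2 in upper hair follicle-like cells of the 2-week knockout (1.45, at least 1000 genes), Elovl6 there (0.762, clusters weighed equally), Elovl1 in dermal papilla or sheath-like cells (0.667, median scaling), and Acly (0.670, clusters weighed equally) and Srebf1 (up to 0.741) in T or natural killer-like cells. Depth limits Scd2 in bulge-like cells and all members in T or natural killer-like cells.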
